A study of Drosophila melanogaster with 3 samples.

Results

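Divergent promoters are stretches of DNA from which a pair of neighbouring genes is read outward on opposite strands. The peaks described here are those of CG31627 at such promoters of protein-coding genes in Drosophila melanogaster. A peak was included when its summit, the position of highest signal, lay within 500 bp of the transcription start of a protein-coding gene that had another protein-coding gene starting 1 to 1000 bp upstream on the other strand. The authors kept peaks by their irreproducible discovery rate (IDR, a measure of how well peaks recur between replicates). Of that IDR-thresholded list, 1321 peaks (17.1%) met the rule and 6396 did not. They made up 43.8% of the 3013 peaks within 500 bp of any protein-coding start. The comparisons below set them against the other 1692 of those 3013 peaks, called non-divergent. The remaining peaks lay near the starts of non-coding genes alone (210) or away from annotated starts (4494). The study has 1 group with 3 biological replicates, each from intact white prepupae with males and females pooled, of a transgenic line that carries CG31627 with GFP at its C-terminus. Chromatin was sonicated, and the DNA was precipitated with an antibody against GFP, although a further label gives the antibody the name of CG31627. The sources used here do not name the promoter that drives the fusion, and whole animals mix many cell types. Control data were not analysed here. Read numbers are not in these lists, and the sequencing depth behind each library is unknown. For values by library, as many of a library's strongest peaks were taken as the IDR-thresholded list holds.

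Closely spaced divergent genes are common in the compact Drosophila genome. Many encode proteins that every cell needs, such as those of the ribosome, mitochondrion and transcription machinery. Housekeeping promoters of this kind often carry the DNA replication-related element (DRE), written TATCGATA, which is bound by the factor DREF and holds the shorter word CGATA that is known as a target of the insulator protein BEAF-32. They also often carry Ohler motif 7, a longer core promoter element found by computational survey, whereas GAGAG, the word bound by GAGA factor, is better known from developmentally regulated and heat shock promoters.

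In the annotation, 5052 of 13945 protein-coding genes (36.2%) had a divergent start, and they formed 2667 gene pairs with a median distance of 301 bp between the starts, here called the gap. The DNA of several gaps shows what lies under the peaks. The following gaps belong to the 4 strongest peaks whose gap held TATCGATA, among gaps of 60 to 300 bp that contain no annotated exon. The sequences are from the plus strand of the Release 6 reference genome (dm6), run from the base after the minus-strand gene's start to the base before the plus-strand gene's start, and have every CGATA on either strand in capitals, so that a DRE appears as TATCGATA.
Atat/Shc: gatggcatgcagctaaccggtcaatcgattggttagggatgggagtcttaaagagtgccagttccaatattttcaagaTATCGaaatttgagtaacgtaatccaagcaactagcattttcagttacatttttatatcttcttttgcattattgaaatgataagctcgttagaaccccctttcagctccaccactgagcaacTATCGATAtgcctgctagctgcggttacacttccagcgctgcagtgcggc
fws/Lamtor3: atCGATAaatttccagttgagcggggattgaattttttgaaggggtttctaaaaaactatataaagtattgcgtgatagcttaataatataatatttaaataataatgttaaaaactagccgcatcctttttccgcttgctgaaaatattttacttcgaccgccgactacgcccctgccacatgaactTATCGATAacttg
Gmd/CG3792: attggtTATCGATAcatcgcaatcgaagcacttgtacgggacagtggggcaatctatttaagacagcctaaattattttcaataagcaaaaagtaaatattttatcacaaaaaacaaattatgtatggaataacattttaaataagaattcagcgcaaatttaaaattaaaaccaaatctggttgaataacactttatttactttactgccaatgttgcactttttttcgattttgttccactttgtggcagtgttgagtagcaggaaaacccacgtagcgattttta
CG32856/Rbf2: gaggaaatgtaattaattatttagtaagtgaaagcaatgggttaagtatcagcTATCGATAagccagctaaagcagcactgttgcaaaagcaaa
The Atat/Shc gap spans chr3L:9426759-9427009, between the genes for an α-tubulin acetyltransferase and a signalling adaptor. The fws/Lamtor3 gap is at chr2L:17481030-17481230, the Gmd/CG3792 gap at chr2L:4977024-4977311 and the CG32856/Rbf2 gap at chr3R:15965352-15965445. Their peaks ranked 26, 269, 336 and 403 by signal in the IDR-thresholded list, where rank 1 is the strongest. The DRE was close to an edge of the gap in fws/Lamtor3 (first base 189 of 201) and Gmd/CG3792 (first base 7 of 288), while the summits stood near the middle, at bases 118 and 139. In Atat/Shc the summit was at base 124 of 251 and the DRE began at base 202. CG32856/Rbf2 differed, with a DRE that began at base 54 of 94 and a summit outside the gap, inside the CG32856 gene.

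The strongest peaks whose gap held no DRE are shown for comparison, under the same limits on length, exons and arm and with the same capitals.
Chro/Ssl1: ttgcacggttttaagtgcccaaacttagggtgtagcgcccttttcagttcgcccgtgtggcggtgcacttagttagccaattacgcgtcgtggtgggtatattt
Tcs5/CHMP2B: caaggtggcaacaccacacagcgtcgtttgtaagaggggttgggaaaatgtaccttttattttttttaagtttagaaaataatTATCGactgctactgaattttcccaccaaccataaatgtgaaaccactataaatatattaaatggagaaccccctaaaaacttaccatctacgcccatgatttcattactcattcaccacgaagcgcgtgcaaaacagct
Art3/mRpS10: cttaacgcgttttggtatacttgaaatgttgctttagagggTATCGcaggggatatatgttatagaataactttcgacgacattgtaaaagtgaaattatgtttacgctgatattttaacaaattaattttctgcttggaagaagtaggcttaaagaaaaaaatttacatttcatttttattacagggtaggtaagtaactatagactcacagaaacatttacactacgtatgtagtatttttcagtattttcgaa
Mnat9/CG1792: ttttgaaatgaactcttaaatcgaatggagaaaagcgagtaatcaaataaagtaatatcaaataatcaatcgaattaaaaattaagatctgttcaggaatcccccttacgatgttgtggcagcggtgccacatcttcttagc
RpS27/Nup37: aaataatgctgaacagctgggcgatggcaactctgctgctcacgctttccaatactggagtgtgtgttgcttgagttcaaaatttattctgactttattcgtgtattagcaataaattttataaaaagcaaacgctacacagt
These gaps lie at chr3L:22878985-22879088, chr3L:5139396-5139618, chr3R:15229409-15229664, chr3R:31616161-31616302 and chr3R:25247515-25247657, in the order shown. The first 4 ranked 4, 8, 10 and 45. RpS27/Nup37, at rank 200, is the strongest qualifying pair with a cytosolic ribosomal protein gene. Tcs5/CHMP2B and Art3/mRpS10 each held 1 CGATA, and the other 3 gaps held none. In Tcs5/CHMP2B the summit was at base 110 of 223, near the middle of the gap, and in Chro/Ssl1 it lay outside the gap.

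The last sequences are gaps with Ohler motif 7, here in capitals, from the strongest peaks with that motif in a gap of the same kind; this choice was made after the values were seen.
Lon/PIG-F: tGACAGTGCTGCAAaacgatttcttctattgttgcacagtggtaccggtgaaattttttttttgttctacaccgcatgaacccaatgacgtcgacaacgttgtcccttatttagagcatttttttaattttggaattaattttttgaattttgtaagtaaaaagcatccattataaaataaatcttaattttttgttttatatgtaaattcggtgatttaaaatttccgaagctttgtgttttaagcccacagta
Reps/l(2)gd1: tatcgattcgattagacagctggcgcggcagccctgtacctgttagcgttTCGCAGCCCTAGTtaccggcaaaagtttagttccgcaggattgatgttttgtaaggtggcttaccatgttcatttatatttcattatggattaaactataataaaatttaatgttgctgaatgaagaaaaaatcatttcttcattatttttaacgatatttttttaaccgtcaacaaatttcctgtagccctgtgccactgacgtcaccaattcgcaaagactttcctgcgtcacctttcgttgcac
They lie at chr3L:19612200-19612454 and chr2L:11106646-11106942 and ranked 67 and 113. Lon encodes a mitochondrial protease. The motif began at base 2 in Lon/PIG-F and at base 51 in Reps/l(2)gd1, and the summit of Reps/l(2)gd1 was at base 199 of 297. The Atat/Shc gap above also held the motif, from base 32. Of 346 member pairs with a gap that qualified for display, 60 had a DRE and 72 had Ohler motif 7 inside the gap.

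The first question was where the peaks sat relative to the starts. Most summits lay between the starts of their pair, an interval that takes up a much smaller share of the sequence searched. Of the 1321 divergent peaks, 1075 (81.4%) had the summit between the starts of their pair, which held 25.7% of the sequence searched. A further 127 lay inside the minus-strand gene and 119 inside the plus-strand gene. By library, the share between the starts was 81.1%, 80.4% and 82.6% in replicates 1, 2 and 3 (mean 81.4% ± 1.10, SD, n = 3). The 3 libraries thus differed by a few percentage points. Non-divergent summits lay upstream of their nearest start in 1454 of 1692 cases (85.9%), and in 83.0%, 85.9% and 85.3% by library. A summit on the upstream side was thus not particular to divergent promoters.

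The position depended on the gap. With 1 to 100 bp between the starts, 29.1% of 134 summits lay between them, against 5.70% of the length, and the median summit was 21 bp inside a gene. The share was 62.2% of 119 summits at 101 to 200 bp, 90.6% of 318 at 201 to 300 bp, 92.8% of 402 at 301 to 500 bp and 86.5% of 348 at 501 to 1000 bp. The corresponding shares of the length were 12.6%, 20.2%, 27.6% and 40.6%. In gaps of 201 to 300 bp the summit was typically close to the centre, with a median distance of 41.3 bp from the middle. In gaps of 501 to 1000 bp that distance was 244.5 bp, and the median summit lay 103 bp upstream of the nearer start. Wide gaps therefore had the summit beside a start rather than midway.

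Measured from the nearest start, summits at divergent promoters were closer than those at non-divergent promoters. The median summit was 74 bp upstream at divergent starts, with quartiles at 22 and 117 bp, and 144.5 bp upstream at non-divergent starts, with quartiles at 57 and 262.2 bp. In the band of 51 to 150 bp upstream stood 649 divergent peaks (49.1%) and 484 non-divergent peaks (28.6%). By library the share in this band was 47.4%, 48.2% and 48.5% for divergent peaks and 26.9%, 26.1% and 28.0% for non-divergent peaks. No library of the first kind overlapped the second. The difference was 21.1 ± 0.933 percentage points (SD, n = 3), higher in 3 of 3 libraries. The exact sign-flip permutation test over the 3 libraries, two-sided, gave p = 0.25, which is the smallest value that 3 libraries can give, so no comparison of this kind here can reach 0.05.

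A narrow gap limits how far upstream of the nearer start a summit can be. The comparison was therefore repeated for summits within 250 bp of a start, with divergent peaks from gaps of 501 to 1000 bp only. The share at 51 to 150 bp upstream was then 46.4%, 43.5% and 44.9% for divergent peaks and 39.6%, 40.0% and 41.4% for non-divergent peaks. The libraries still did not overlap, and the difference was 4.61 ± 1.89 percentage points (SD, n = 3; exact sign-flip permutation test, two-sided, p = 0.25). In the same comparison the median summit of the IDR-thresholded list was 103 bp upstream for divergent and 104 bp for non-divergent peaks. Over the libraries the difference in medians was -9.67 ± 4.62 bp (SD, n = 3), and the library ranges overlapped. The medians were thus much closer to each other than those of all peaks.

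**Figure D1:**
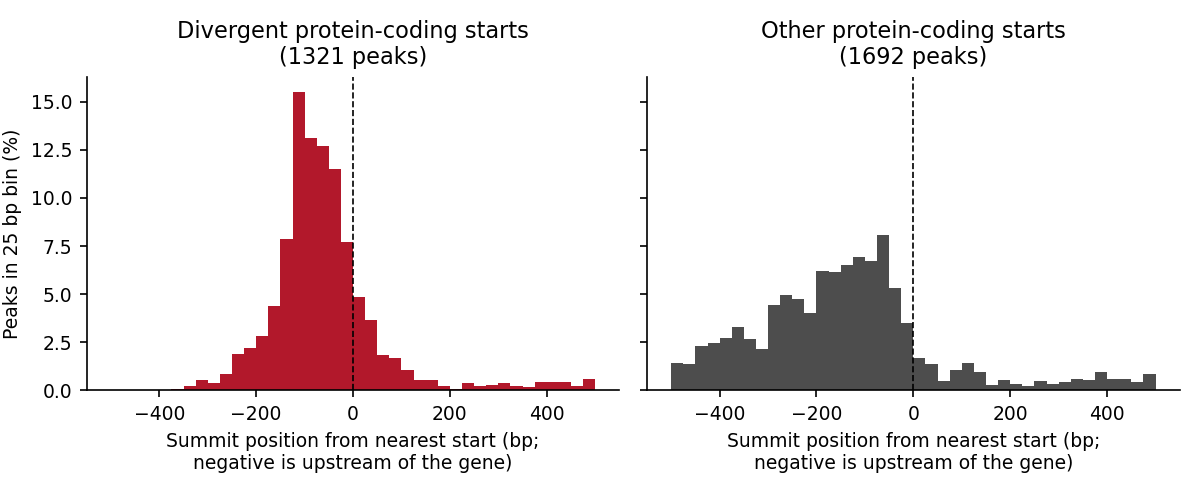
Share of peaks (y axis, %) by position of the summit from the nearest start in 25 bp bins (x axis, bp, negative upstream), for 1321 peaks at divergent starts (left) and 1692 at other protein-coding starts (right). The divergent peaks gather within about 150 bp upstream, and the others spread across the whole upstream side.

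The next comparison asked how often protein-coding genes had a peak. Genes with a divergent start had one about 3 times as often as other genes. A summit of the IDR-thresholded list lay within 500 bp of a start at 26.4% of all 13945 protein-coding genes. The share was 45.0% for divergent genes (2273 of 5052, at a divergent start) and 14.9% for other genes (1322 of 8893). By library it was 44.7%, 40.7% and 46.9% for divergent genes and 15.02%, 13.8% and 15.6% for other genes. The lowest divergent value, in replicate 2, was above every value of the other genes. The means were 44.1% ± 3.15 for divergent genes and 14.8% ± 0.953 for other genes (SD, n = 3), and the difference was 29.3 ± 2.20 percentage points, higher in 3 of 3 libraries (exact sign-flip permutation test, two-sided, p = 0.25).

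The same held for single starts searched over windows of equal width. Of all 19253 protein-coding starts, 24.2% had a summit within 500 bp. The share was 45.1% of 6036 divergent starts and 14.7% of 13217 other starts. A summit between close starts counts for both genes of a pair. When each summit was given to its nearest start only, 28.0% ± 1.77 of divergent genes and 14.7% ± 0.952 of other genes had a peak (SD, n = 3), a difference of 13.3 ± 0.819 percentage points in the same direction in 3 of 3 libraries. That setting leaves the farther gene of a pair without the shared peak by construction.

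**Figure D2:**
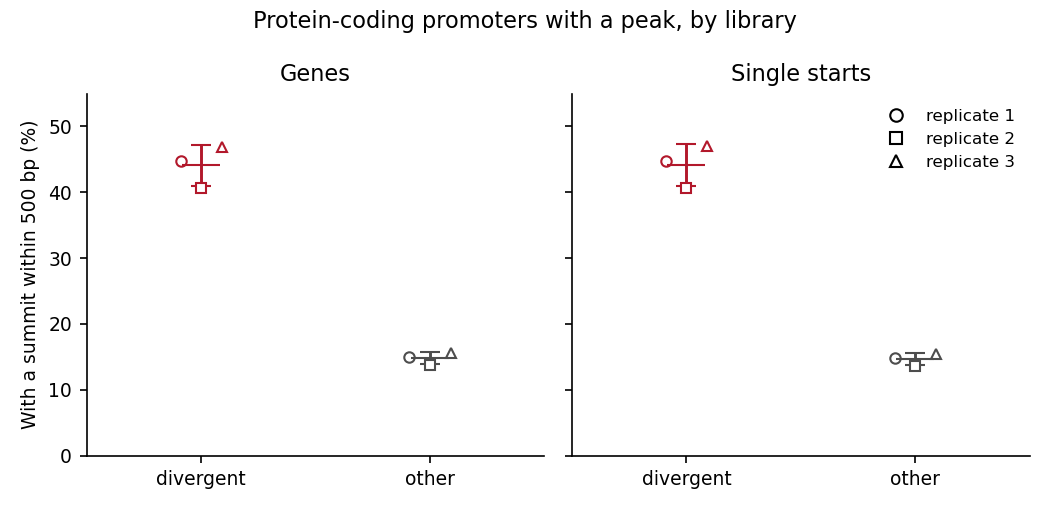
Share of protein-coding genes (left panel) and of single starts (right panel) with a summit within 500 bp (y axis, %), for divergent and other promoters, by library. Symbols are the 3 libraries, and bars give the mean and SD; every divergent value, from 40.6% up, lies above every other value.

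Counted as gene pairs, 1282 of 2667 (48.1%) had a summit within 500 bp of either start. Pairs with 201 to 300 bp between the starts had a peak most often. The share by gap was 43.1% of 429 pairs at 1 to 100 bp, 38.1% of 357 at 101 to 200 bp, 58.1% of 542 at 201 to 300 bp, 54.4% of 667 at 301 to 500 bp and 42.1% of 672 at 501 to 1000 bp. In replicates 1, 2 and 3 it was 58.7%, 54.1% and 59.96% at 201 to 300 bp, and 40.6%, 32.5% and 40.1% at 101 to 200 bp. These ranges did not overlap, and the difference was 19.8 ± 1.76 percentage points (SD, n = 3; exact sign-flip permutation test, two-sided, p = 0.25). The pair of bins was picked after the values were seen. The sequence searched grows with the gap, yet the widest gaps had fewer peaks than the middle ones. The median gap itself was nearly the same with a peak (302 bp) and without (301 bp).

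**Figure D3:**
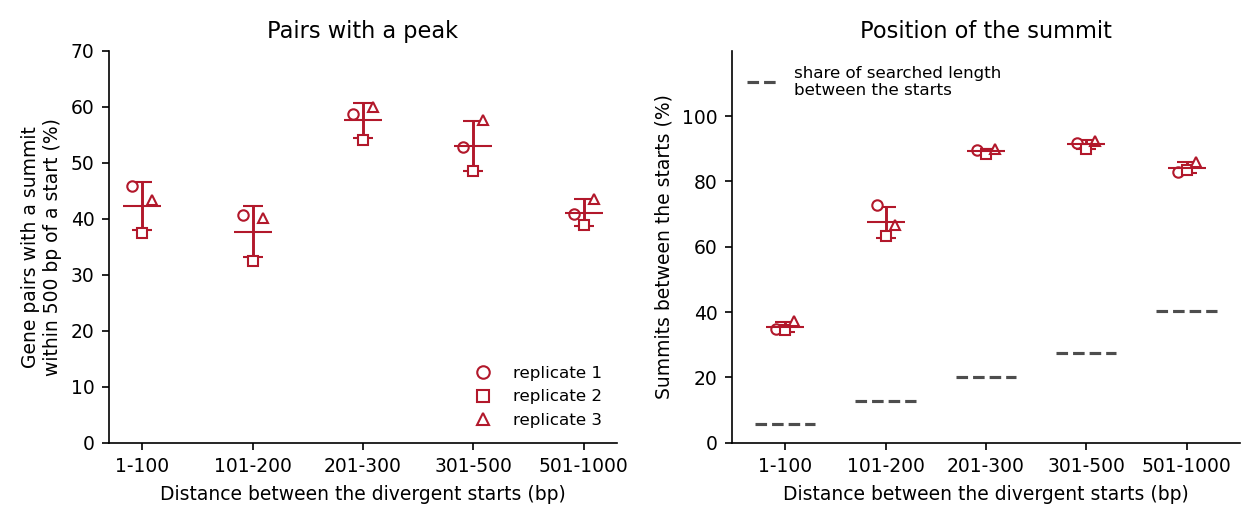
Left, share of divergent gene pairs with a summit within 500 bp of a start (y axis, %), and right, share of their summits that lie between the starts (y axis, %), by distance between the starts (x axis, bp). Symbols are the 3 libraries with mean and SD, and dashed lines mark the share of the searched length between the starts; pairs at 201 to 300 bp have the highest share with a peak, 57.6% on average.

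Most pairs were either called in all libraries or in none. A summit was present in all 3 libraries at 1032 pairs (38.7%), in 2 at 237, in 1 at 203 and in none at 1195 (44.8%). Of the 1385 pairs without an IDR-thresholded peak, 376 had a peak with a q value of 0.05 or less in the list called on the pooled libraries, and 649 had any pooled peak. Those lists hold background by design, so the second count is an upper one. By chromosome arm the share of pairs with a peak was 46.2% on 2L, 44.2% on 2R, 50.2% on 3L, 53.6% on 3R and 43.2% on X. On chromosome 4, 7 of 11 pairs had a peak, and none of the 7 was among the strongest 50% of the IDR-thresholded list. The strongest of them, CG46466/Slip1, ranked 3974, and the peak of CG11076/ATPsynbeta, at the gene for the β subunit of ATP synthase, ranked 4921. The other 5, at Zip102B/Rnf11, Zyx/apolpp, Dyrk3/Cadps, Cals/Arf4 and CG32017/Kif3C, ranked from 5155 to 6971. Only the Zip102B/Rnf11 peak was matched in all 3 libraries.

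The sequence under the summits was compared next, with 10 motifs searched on both strands. The DRE was rare overall but more frequent at divergent summits. Of all IDR-thresholded peaks, 1.74% had TATCGATA within 50 bp of the summit. The share was 6.21% of divergent peaks (82 of 1321), 2.19% of non-divergent peaks (37 of 1692) and 0.334% of peaks away from annotated starts. By library it was 6.80%, 5.44% and 6.536% for divergent peaks and 2.72%, 2.29% and 2.71% for non-divergent peaks, without overlap. The difference was 3.68 ± 0.481 percentage points (SD, n = 3), higher in 3 of 3 libraries (exact sign-flip permutation test, two-sided, p = 0.25, or 0.278 after Benjamini-Hochberg adjustment over the 10 motifs). Windows of the same width centred on all protein-coding starts held a DRE in 4.48% of cases, so the share was above it at divergent summits and below it at non-divergent summits. The starts themselves differed by class, counted with or without a peak. A DRE lay within 250 bp of 16.0% of divergent and 5.03% of non-divergent starts. The part of this in the difference at summits was not tested.

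Ohler motif 7 was within 50 bp of the summit in 2.73% of all peaks. It was present at 7.87% of divergent peaks (104) and 3.84% of non-divergent peaks (65), and in 4.63% of windows at all protein-coding starts. Among starts with or without a peak, it lay within 250 bp of 18.1% of divergent and 7.30% of non-divergent ones. The part of this in the difference at summits was not tested. The word CGATA, which every DRE contains, was at 28.5% of divergent and 19.6% of non-divergent summits, and at 23.6% of all protein-coding starts. Its share of starts by class was not counted. GAGAG went the other way, with 6.96% of divergent and 9.34% of non-divergent summits, against 12.7% of all protein-coding starts. With or without a peak, GAGAG lay within 250 bp of 38.35% of divergent and 50.7% of non-divergent starts. In each of the 3 libraries the first 3 words were more frequent, and GAGAG less frequent, at divergent summits (exact sign-flip permutation tests, two-sided, p = 0.25 each, adjusted p = 0.278). Ohler motifs 1 and 6 were at 1.21% and 0.984% of divergent summits, against 0.768% and 0.355% of non-divergent ones, and at 2.73% and 0.732% of all protein-coding starts. CAGCTG and TATAAA were at 4.16% and 18.3% of divergent and 4.55% and 17.2% of non-divergent summits, and at 8.77% and 15.5% of all protein-coding starts. CACGTG and CACACACA were at 0.984% and 0.606% of divergent and 0.887% and 0.709% of non-divergent summits, against 1.82% and 1.81% of all protein-coding starts. For CAGCTG the libraries went the other way from the IDR-thresholded list, with 4.99%, 5.44% and 5.16% of divergent summits against 4.75%, 4.46% and 4.85% of non-divergent summits in replicates 1, 2 and 3. TATAAA and Ohler motifs 1 and 6 were higher, and CACACACA lower, at divergent summits in each library, and CACGTG was higher in 1 library only. Base composition was close in both classes, with 64.7% A and T within 50 bp of divergent summits and 63.9% at non-divergent summits.

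A wider window held more matches. Within 250 bp of the summit, 411 divergent peaks (31.1%) had Ohler motif 7 and 278 (21.0%) had a DRE. Non-divergent peaks had them in 233 (13.8%) and 141 (8.33%) cases. The median distance from the divergent summit to the nearest match within that window was 87 bp for Ohler motif 7, 91.5 bp for the DRE and 119 bp for GAGAG, which 453 divergent peaks (34.3%) had in that window. From non-divergent summits the medians were shorter, at 79, 76.5 and 113 bp in the same order. GAGAG was in that window at 908 non-divergent peaks (53.7%).

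Divergent peaks with a DRE or Ohler motif 7 within 50 bp of the summit were weaker than those without it. The 82 with a DRE within 50 bp had a median rank of 4622.5, and the 1239 without it had a median rank of 3085. In replicates 1, 2 and 3 the median rank was 4468, 4296 and 4366.5 with the DRE and 3288.5, 2764.5 and 3079 without it. The ranges did not overlap, and the rank was weaker with the DRE in 3 of 3 libraries (exact sign-flip permutation test, two-sided, p = 0.25). Of the 82, 4 were among the 1000 strongest peaks, and of the 1239 others, 213 were. Ohler motif 7 showed the same order. The median rank was 4451.5 for the 104 peaks with it and 3077 for the 1217 without it, and 3 of the 104 and 214 of the 1217 were among the 1000 strongest. In the libraries the median ranks were 3854, 3808.5 and 4162 with the motif and 3270, 2796 and 3135 without it (exact sign-flip permutation test, two-sided, p = 0.25). Base composition moved with rank as well. A and T made up 68.9% ± 6.70 of the bases at the 217 divergent summits of rank 1 to 1000, 64.9% ± 9.25 at the 565 of rank 1001 to 4000 and 62.8% ± 9.23 at the 539 below (SD over peaks). The part of base composition in the rank difference was not tested.

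Whether a pair had a peak at all was compared over a wider window, for which ranks were not compared. More pairs had a peak with Ohler motif 7 or a DRE in that window than without. Pairs with Ohler motif 7 within 250 bp of the middle of the gap had a peak in 69.5% of 560 cases, and pairs without it in 42.4% of 2107. By library the shares were 70.4%, 61.6% and 70.7% with the motif and 42.4%, 38.4% and 44.4% without it. The lowest value with the motif exceeded the highest without it, and the difference was 25.8 ± 2.44 percentage points (SD, n = 3; exact sign-flip permutation test, two-sided, p = 0.25). For the DRE the shares were 53.7% of 503 pairs with it and 46.8% of 2164 without it. In the libraries they were 54.7%, 47.3% and 57.1% with it and 46.8%, 42.4% and 48.2% without it, so the ranges overlapped, although each library on its own was higher with the DRE. Pairs with 2 or more DREs had a peak in 60.6% of 66 cases, and pairs with 1 in 52.6% of 437. Pairs with GAGAG in the window had a peak in 44.8% of 919 cases, and pairs without it in 49.8% of 1748. Other words showed differences of similar size to the DRE. As means over the 3 libraries, pairs with the motif had a peak more often by 7.22 ± 2.03 percentage points for the DRE, 7.55 ± 1.54 for CAGCTG, 6.44 ± 0.609 for CACGTG, 5.67 ± 1.14 for TATAAA, 4.05 ± 3.03 for CACACACA and 3.29 ± 1.87 for CGATA (SD, n = 3), each in 3 of 3 libraries. For Ohler motifs 1 and 6 the differences were 0.72 ± 3.403 and -2.94 ± 3.82 points, and each was positive in 1 of 3 libraries. Windows of the same width at all protein-coding starts held Ohler motif 7 in 10.7%, the DRE in 8.48%, GAGAG in 46.8%, CAGCTG in 26.1%, CACGTG in 6.82% and TATAAA in 52.2% of cases.

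The Ohler motif 7 difference was present at every gap. With and without the motif, the share of pairs with a peak was 63.2% and 37.4% at 1 to 100 bp, 56.0% and 33.3% at 101 to 200 bp, 80.6% and 48.7% at 201 to 300 bp, 68.2% and 49.4% at 301 to 500 bp, and 70.6% and 39.8% at 501 to 1000 bp. The motif itself was in 29.5% of windows at 201 to 300 bp and in 7.59% at 501 to 1000 bp. The higher share of peaks at 201 to 300 bp than at 101 to 200 bp was seen in pairs with and in pairs without the motif.

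Single starts allowed the same comparison with non-divergent promoters. Divergent starts with Ohler motif 7 within 250 bp had a summit within 500 bp in 64.7% ± 4.47 of cases, and those without it in 39.6% ± 3.07 (SD over 3 libraries). For non-divergent starts the shares were 26.5% ± 2.07 with the motif and 13.7% ± 0.834 without it. The motif was near 18.1% of divergent and 7.30% of non-divergent starts. Starts without the motif still differed by class, by 25.9 ± 2.26 percentage points, and starts with it by 38.2 ± 2.84. The rise with the motif was 25.04 points at divergent and 12.8 points at non-divergent starts, and the difference between these rises was 12.3 ± 2.29 points, positive in 3 of 3 libraries (exact sign-flip permutation test, two-sided, p = 0.25). As a ratio, the share with the motif was less than doubled at divergent starts and close to doubled at the others, so the order of the rises depends on the scale.

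The DRE and GAGAG behaved differently from Ohler motif 7. With and without a DRE, 50.3% ± 4.74 and 43.0% ± 2.97 of divergent starts had a summit, and 23.7% ± 4.21 and 14.1% ± 0.749 of non-divergent starts (SD, n = 3). The rise was 7.35 points at divergent and 9.57 points at non-divergent starts, a difference of -2.21 ± 1.67, negative in 3 of 3 libraries (exact sign-flip permutation test, two-sided, p = 0.25). With and without GAGAG, 42.2% ± 2.89 and 45.4% ± 3.49 of divergent starts had a summit, against 16.2% ± 0.793 and 13.1% ± 1.07 of non-divergent starts. GAGAG thus went with fewer peaks at divergent starts, by 3.18 ± 0.699 points, and with more at non-divergent starts, by 3.10 ± 0.344 points. The difference between them was -6.28 ± 0.628 points, negative in 3 of 3 libraries (exact sign-flip permutation test, two-sided, p = 0.25).

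**Figure D4:**
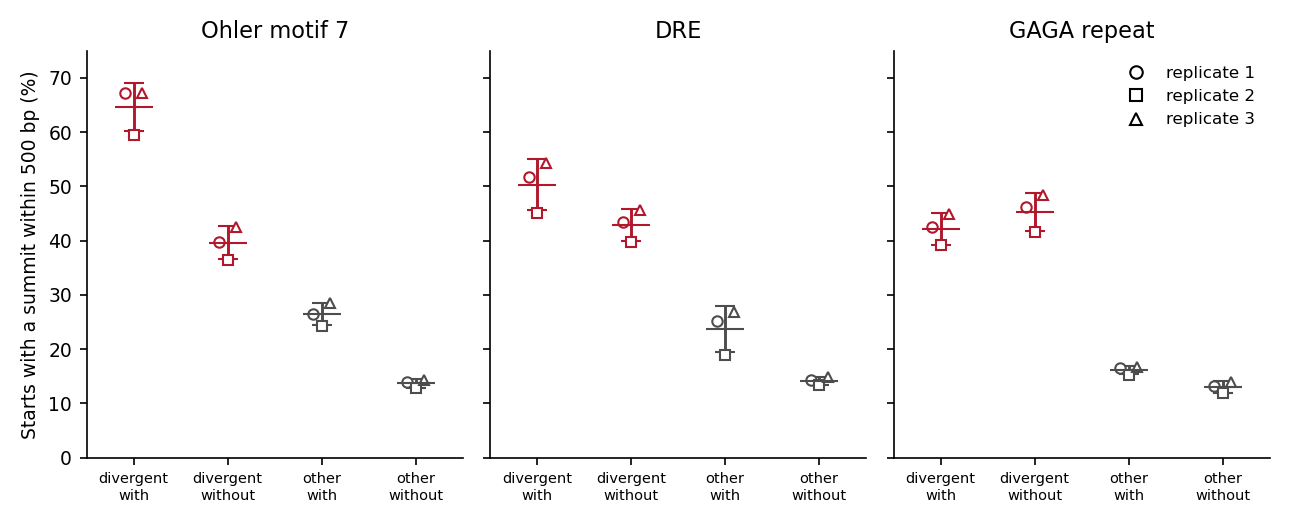
Share of single protein-coding starts with a summit within 500 bp (y axis, %), for divergent and other starts with and without each motif within 250 bp. Symbols are the 3 libraries with mean and SD; divergent starts with Ohler motif 7 are highest, at 59.5% to 67.3%, and divergent starts lie above the other starts with and without each motif.

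The strength of the peaks was compared through ranks, since the sources used here give no scale for the signal. Divergent peaks ranked somewhat higher than non-divergent peaks. Their median rank was 3209, and that of non-divergent peaks was 3724. As a percentile of the list, with 0 the strongest, the medians by library were 43.6, 37.2 and 42.0 for divergent peaks and 49.7, 47.0 and 49.5 for non-divergent peaks. The ranges did not overlap, and the difference was -7.84 ± 1.85 percentile points (SD, n = 3; exact sign-flip permutation test, two-sided, p = 0.25). Divergent peaks made up 22.5% of the strongest 10% of the IDR-thresholded list and 12.5% of the weakest 10%, while non-divergent peaks made up 27.1% and 20.9%. The difference was small among strong peaks. Among the strongest 50% of peaks it was -1.16 ± 2.05 percentile points, and the sign differed in 1 of the 3 libraries.

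**Figure D5:**
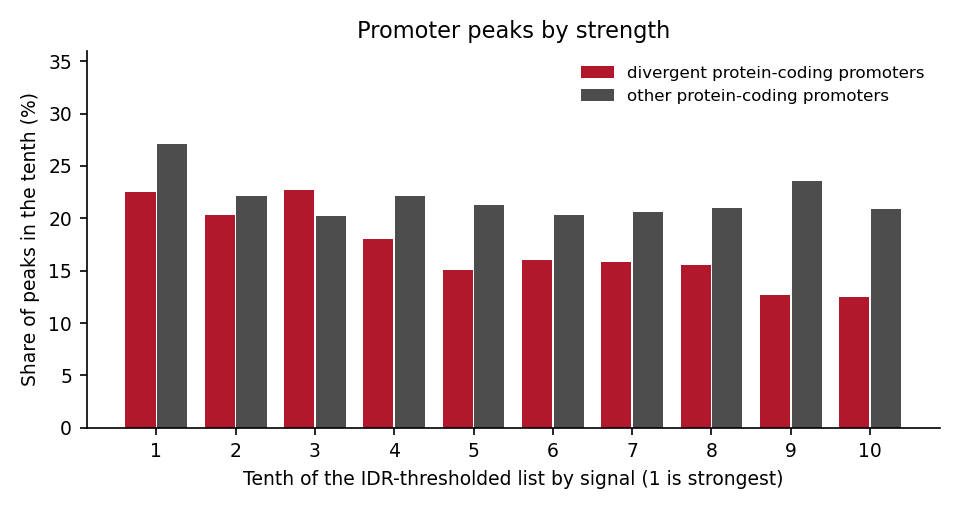
Share of the peaks in each 10% bin of the IDR-thresholded list (y axis, %) that lay at divergent and at other protein-coding promoters, from the strongest bin to the weakest (x axis). The divergent share is highest in the first 3 bins, between 20.3% and 22.7%, and lowest in the last, 12.5%.

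Recurrence between libraries was slightly more frequent for divergent than for non-divergent peaks, a difference for which no test was made. Of all IDR-thresholded peaks, 77.6% overlapped one of the strongest peaks in each of the 3 libraries. The share was 79.0% for divergent peaks (1043 of 1321) and 75.2% for non-divergent peaks (1272 of 1692). It was 76.7% for peaks near non-coding starts alone and 78.1% for peaks away from annotated starts, so the divergent share was not particular to them. Replicate 2 matched 86.6% of the divergent peaks, below the 92.4% of replicate 1 and the 95.2% of replicate 3. Only 3 divergent peaks were matched in no library. The median shift between the divergent summit and that of the strongest overlapping library peak was 10, 16 and 14 bp in replicates 1, 2 and 3. It was measured for the 1312, 1243 and 1318 divergent peaks with an overlapping library peak. The IDR-thresholded list comes from the pooled libraries, so each library helped place the summits it is compared with. Shifts from library to library were not measured.

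The strongest divergent peaks were near the top of the list in every library. The authors' signal values of divergent peaks ran from 103.1 to 4503, with a median of 242.6. The highest was at Ugalt/eIF2Bbeta (chrX:2703674-2704116), between the genes for a UDP-galactose transporter and a subunit of the exchange factor for translation initiation factor eIF2, 719 bp apart. It ranked 4, 3 and 3 in replicates 1, 2 and 3, where its signal was 1816, 1236 and 1486, with the summit 38 bp from the Ugalt start and 681 bp from the eIF2Bbeta start. Chro/Ssl1 (chr3L:22878668-22879140), which pairs the chromatin protein Chromator with a subunit of the transcription factor TFIIH, ranked 6, 5 and 6 in the libraries, and its summit was 90 bp inside the Chro gene. PNPase/Gprk2 (chr3R:31404439-31404909), which pairs a mitochondrial exoribonuclease with a G protein-coupled receptor kinase, ranked 7, 6 and 5 in the libraries, with the summit 82 bp inside the PNPase gene. The summits of these last 2 peaks were thus inside an annotated gene and not in the gap.

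Other strong summits lay between the starts, and those of Tcs5/CHMP2B, Art3/mRpS10 and Atat/Shc were near the middle. Tcs5/CHMP2B (chr3L:5139287-5139717), with a tRNA modification kinase and a subunit of the ESCRT-III membrane remodelling complex, ranked 9, 10 and 7 in the libraries, and its summit was 110 and 114 bp from the starts. Art3/mRpS10 (chr3R:15229307-15229761), with an arginine methyltransferase and a mitochondrial ribosomal protein, ranked 11, 9 and 12, with its summit 142 bp from the mRpS10 start. Atat/Shc ranked 38, 24 and 26, with its summit 124 and 128 bp from the starts. The peak of mRpS23/CenG1A, which has an ArfGAP gene on the plus strand, ranked 12, 12 and 16, and its summit was 386 bp from the mRpS23 start and 106 bp from the CenG1A start. These 4 pairs had gaps of 224 to 492 bp.

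The rest of the 15 strongest divergent pairs were mRpL41/CG8079, Pex11ab/CG8320, CG5757/CG5098, Fbw5/CG9147, Pdrg1/Pal1, CG8372/CG8360, mRpL23/CG9004 and Mnat9/CG1792, with ranks of 15 to 45 in the IDR-thresholded list. Some of them moved between libraries, such as Pdrg1/Pal1 at 27, 30 and 44, Pex11ab/CG8320 at 28, 21 and 15, and CG5757/CG5098 at 24, 13 and 29 in replicates 1, 2 and 3. Pex11ab encodes a peroxisome protein, and Pal1 encodes an enzyme of neuropeptide amidation. In all, mitochondrial ribosomal protein genes stood in 4 of the 15 pairs, namely those with mRpS10, mRpS23, mRpL41 and mRpL23. Counted as genes rather than pairs, they were 36 of all 2273 divergent genes with a peak. The 1321 peaks were assigned to 1181 pairs, of which 134 had more than 1. The largest number was 3, reached by 6 pairs, among them CG17574/bic, CG5946/RpL10Ab and CG32767/CG15465.

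Genes of the basic cellular machinery were grouped by symbol into 15 lists. In 14 of the 15, more of the genes had a divergent start than the 36.2% of all protein-coding genes. The share of divergent genes with a peak ranged from 35.0% to 87.5% across lists, against 45.0% over all divergent genes. It was above that value in 10 lists and below it in 5. Divergent genes had a peak more often than the other genes of the same list in 12 lists and less often in 3, which were the replication, Integrator and chromatin lists, with 6, 3 and 6 non-divergent genes.

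Cytosolic ribosomal protein genes had the highest share of all lists. Of the divergent cytosolic ribosomal protein genes, 49 of 56 (87.5%) had a peak, against 25 of 37 (67.6%) of the non-divergent ones. In replicates 1, 2 and 3 the count was 50, 40 and 49 of the 56. Their strongest peaks were at RpS27/Nup37, RpL32/CG7943 and Ripalpha/RpL7, at ranks 200, 306 and 314. The RpS27/Nup37 peak ranked 202, 359 and 142 in the libraries, and its summit was 8 bp from the RpS27 start. Of the mitochondrial ribosomal protein genes, 79.5% were divergent, and 36 of those 58 (62.1%) had a peak, against 2 of 15 non-divergent ones. The library counts were 34, 34 and 37. Of the aminoacyl-tRNA synthetase genes, 11 of 23 divergent and 1 of 10 non-divergent genes had a peak, led by SerRS/CG17260 at rank 257, GluProRS/AP-1sigma at rank 678 and Hem/IleRS at rank 886.

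Among transcription genes, RNA polymerase subunit genes had a peak in 12 of 19 divergent and 2 of 11 non-divergent cases, with CG11247/Polr2H and 140up/Polr2B strongest at ranks 249 and 784. Mediator genes had one in 10 of 19 divergent and 2 of 6 non-divergent cases, with MED30/Rev1 at rank 173, elm/MED27 at rank 240 and CG12321/MED17 at rank 1342. For TFIID and other general factors the counts were 8 of 16 divergent and 1 of 7 non-divergent, with Zn72D/Taf4, pll/TfIIA-L and Bug22/TfIIB at ranks 627, 1151 and 1913. Integrator genes, which act in snRNA 3′ end processing, had a peak in 4 of 8 divergent and 2 of 3 non-divergent cases, with Wdr24/IntS11 at rank 163, IntS6/Rtel1 at rank 405 and IntS9/CG43295 at rank 607. The Wdr24/IntS11 peak varied between libraries, with ranks of 319, 193 and 82. Chromatin and insulator genes had a peak in 8 of 12 divergent and 5 of 6 non-divergent cases. After Chro, the strongest were Cp190/CG4338 at rank 274 and brm/Arl1 at rank 360. Cp190 is an insulator cofactor and brm encodes the motor subunit of a nucleosome remodeller.

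Vesicle and V-ATPase genes showed a wide contrast, with a peak in 20 of 30 divergent and 4 of 26 non-divergent cases. Their strongest pairs were Fur1/Vps33B at rank 89, Vha100-2/Vti1b at rank 114 and Vps36/Liprin-beta at rank 398. Among the 15 lists, divergent complex I genes had a peak least often, in 35.0% of cases against 45.0% of all divergent genes. Complex I genes had a peak in 7 of 20 divergent and 4 of 14 non-divergent cases, with TppII/ND-MWFE, ND-ASHI/Fum1 and Cchl/ND-42 at ranks 229, 374 and 1109. Other oxidative phosphorylation genes had one in 10 of 21 divergent and 5 of 24 non-divergent cases, with Afti/ATPsynE, glo/COX5A and Sec3/COX7B at ranks 1165, 1575 and 2490. Mitochondrial import genes had one in 2 of 5 divergent and 0 of 10 non-divergent cases, at CG8229/Tom7 and Tim10/Ppcdc, ranks 1414 and 2630.

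Proteasome genes had a peak in 11 of 26 divergent and 4 of 22 non-divergent cases, with Hat1/Rpn5, l(2)37Bb/Rpn3 and RanBP3/Rpt5 at ranks 471, 1084 and 2594. Replication genes had one in 7 of 18 divergent and 3 of 6 non-divergent cases, led by CG13933/PolD2 at rank 534, RPA1/Mcm2 at rank 1028 and qkr58E-3/PolE4 at rank 2772. Exosome and RNA decay genes had one in 4 of 10 divergent and 0 of 1 non-divergent cases. The strongest by symbol was Rrp1/gammaTub23C at rank 804, but Rrp1 of the fly is known as a DNA repair protein and only its name fits the list. Rrp6/CG33331 and Ski6/CG16812 followed at ranks 1899 and 3796.

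Pairs in which both genes were on a list were few. Of 9 such pairs, 3 had a peak, against 213 of 344 pairs (61.9%) with 1 listed gene and 1066 of 2314 (46.1%) with none. The 3 were Dref/RpL13, Prosbeta1/Rrp42 and su(Hw)/Polr2I. Dref encodes the factor that binds the DRE, and its pair, with a gap of 84 bp, ranked 1732 in the IDR-thresholded list and 1738, 2102 and 1806 in replicates 1, 2 and 3. The Prosbeta1/Rrp42 and su(Hw)/Polr2I peaks ranked 4505 and 5670, and the last was not matched in replicate 2. Taf10b/Taf10, Ibf2/Ibf1, mRpL39/Prosbeta2, TrpRS/Vps16A, mRpL55/ATPsynD and Rrp5/Dis3 had no IDR-thresholded peak.

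At the edges of the rule, the members nearest to the 500 bp limit were the peaks of Hsp67Bc/Hsp22 (498 bp from a start, rank 4373) and dbe/PNUTS (496 bp, rank 1119). Just outside it were the peaks near RpS19b/CG5854 (512 bp, rank 262) and CG42637/SREBP (517 bp, rank 1532). The widest gaps among members were those of hts/CalpA (999 bp, rank 6406) and Gnpat/CG5112 (994 bp, rank 4663). The peaks of Rgk1/CG11961 (1007 bp, rank 4372) and Panx/CG9485 (1013 bp, rank 2624) fell just outside. The peaks on either side of both limits thus covered a wide range of ranks.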

How the data were processed

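CG31627-GFP was mapped by ChIP-seq in 3 biological replicates of whole white prepupae. The sources used here name neither the aligner nor the peak caller. The authors deposited peak lists on dm6 for each library, for the pooled libraries and for peaks past an IDR threshold; per the deposited listing, library and pooled lists keep background peaks for the IDR step. The signal value of a peak is the authors' own and served only for ranking and description inside its own list. The q value is deposited as −log10. The 1 peak on chromosome Y in the lists was left out, and every per-sample column was mapped (0 unmapped).

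Start sites were the 5′ ends of all protein-coding transcripts in Ensembl 115 (BDGP6.54, dm6 coordinates). Analyses covered the 6 arms X, 2L, 2R, 3L, 3R and 4. Sequence came from the NCBI reference genome of Release 6. Each peak was assigned to the pair with the start nearest its summit, and the smaller gap where pairs tied. From each library as many of the strongest peaks were taken as the IDR-thresholded list holds, and these included 1324, 1195 and 1377 divergent peaks. Per library, 17347, 8592 and 10806 peaks had a q value of 0.05 or less. Differences were tested over the 3 libraries with an exact sign-flip permutation test. Its two-sided p is 0.25 whenever the differences of all 3 libraries share a sign, whatever their spread. The p-values concern these libraries only. Motifs lay wholly within the window.

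The members, gene lists and motifs were chosen with earlier results of these data known. Named pairs were the 15 strongest matched in all libraries, the 3 strongest of each list, pairs with both genes listed, pairs at the limits, 3 of those with most peaks (ties taken in alphabetical order) and pairs on chromosome 4; a pair named by this rule is not reported here. Analyses of Ohler motif 7 by start, gap and rank, the comparison of gap bins and the comparison within 250 bp were chosen after seeing the data. Functions were tested on simulated data. Python 3.11.15, numpy 2.4.6, pandas 2.3.3, scipy 1.17.1 and matplotlib 3.10.9 were used.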

Additional observations from a re-analysis of the deposited data

How the results depend on the processing

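Alternatives changed the largest gap, the summit window, the start sites, the number of peaks, repeated intervals, the libraries, the motif and the match rule. No direction of the occupancy, rank, DRE or recurrence difference was reversed in any of them, and with 3 libraries no setting can pass a threshold of 0.05. The number of divergent peaks was 442 with gaps up to 250 bp and 761 among the strongest 50% of peaks, and from 995 to 1503 in the other settings. The share between the starts was 78.7% with gaps up to 500 bp, 57.5% with gaps up to 250 bp, 83.8% with a summit window of 250 bp and 71.4% with 1000 bp. It was 77.2% with gene 5′ ends only and 78.0% with all library peaks at a q value of 0.05 or less. Leaving out each replicate in turn gave 80.8% to 81.8% for this share, 28.3 to 30.5 percentage points for the occupancy difference, -8.68 to -6.85 for the rank difference, 3.49 to 3.95 for the DRE difference and 2.95 to 3.34 for the recurrence difference. Over all alternatives the occupancy difference ran from 13.3 points (nearest start only) to 33.5, and the rank difference from -11.6 to -1.16 percentile points. The occupancy difference was 19.7 points with the strongest 50% of peaks and 30.1 points for starts with at least 80% unique 31-mers within 500 bp. The DRE difference was 8.22 points with CGATA in its place. The promoter classes were compared within each library, so the tests are paired by library, and the series has no further group of samples to pair. Depth is unknown, so absence of a peak cannot be told apart from too little sequencing.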
